A study of Mus musculus with 12 samples.

Results

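Mouse embryonic stem (ES) cells lacking the histone methyltransferase SUV420H2 were compared with wild-type (WT) ES cells by sequencing of polyadenylated RNA. Of the 12 libraries of the series, 4 are undifferentiated cells of these genotypes, 2 labelled WT and 2 labelled SUV420H2 KO, and they were chosen by those labels. Both groups were grown on gelatin, with 1.5 µM of a GSK3 inhibitor in the medium over several passages so that feeder cells were lost. Values of 2 ES libraries with SUV420H1 and SUV420H2 both lacking (DKO, same culture), and of 1 WT and 1 KO library at each of days 8 and 12 of differentiation, are given beside them where they add to the picture. The labels give no strain, sex, clone or way of making the mutation, do not say how the cells were differentiated, and do not say whether the 2 libraries of a genotype are separate cultures. The p-values therefore measure the spread between libraries of a genotype, those of DKO included, which may be technical.

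SUV420H2 turns monomethylated lysine 20 of histone H4 into its di- and trimethylated forms, mainly at pericentromeric and other constitutive heterochromatin, where HP1 proteins bound to methylated lysine 9 of histone H3 recruit it. Its relative SUV420H1 makes most of the dimethyl mark across the genome, and SETD8 makes the monomethyl mark that both enzymes build on. ES cells are held in a naive pluripotent state by LIF and STAT3 signalling and by inhibition of GSK3, which spares beta-catenin from destruction, whereas FGF4 signalling through ERK moves them towards the primed state of the later epiblast. In naive cells many germline genes are silenced by DNA methylation and by a Polycomb complex that contains E2F6, MGA and MAX, and a rare subset of cells switches on genes of the 2-cell embryo.

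The libraries held between 23225915 and 24710502 reads in genes. Suv420h2 transcripts, on chromosome 7, were at 123 and 112 CPM in the WT and 19.11 and 17.3 in the KO libraries (log2 fold change -2.66 with SE 0.19, edgeR adjusted p = 6.1e-07), where CPM is the read count scaled to library size with TMM factors, so transcripts remained in KO and counts over whole transcripts cannot show which exons were lost. Of 9 ES cell marker genes, 3 rose and 3 fell in KO, where 42.7% of all genes tested changed, and their summed level was 3324 and 3264 RPKM (the deposited value scaled also to transcript length) in WT and 2759 and 2902 RPKM in KO. Of 10 feeder fibroblast markers, 2 passed the filter on low values and both rose, and the sum of all 10 went from 6.54 and 5.75 to 10.6 and 12.4 RPKM, with Col1a2, Col3a1, Lum, Dcn, Postn and Prrx1 under 0.1 RPKM in all 4 libraries. The Y-linked genes Ddx3y, Eif2s3y and Uty, read in both WT libraries, had no reads in either KO library, and genes of chromosome X were a median 1.88-fold higher in KO. Genes of chromosomes 1 and 14 were a median 0.673 and 0.693 times their WT level. The KO and WT cells thus differ in more than Suv420h2, and the genotype, the cell line and its chromosomes cannot be told apart in these samples. Chromosome copy number was not analysed here, and members of a list that lie on chromosomes 1, 14, X and Y are counted separately where they bear on it.

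Of 12044 genes that reached 1 RPKM in 2 or more of the 6 ES libraries, 5142 (42.7%) changed between KO and WT (edgeR quasi-likelihood test, adjusted p under 0.05). The rises numbered 2827 (23.5% of the genes tested) and the falls 2315 (19.2%). A change of at least 2-fold was seen for 1164 genes that rose (9.66%) and 575 that fell (4.77%), and one of at least 8-fold for 142 and 23. The levels of WT and KO libraries did not overlap for 5141 of the 5142. With 2 libraries a group this adds little to the test, and the share over all genes tested is not given here. Suv420h1 and Setd8, which did not pass the test, had no overlap either. Genes that rose at least 2-fold came from a low level, with a median of 1.08 RPKM in WT and 3.74 RPKM in KO, while those that fell at least 2-fold went from a median of 4.29 to 1.41 RPKM. The median over all genes tested was 6.31 RPKM in WT. The count of changed genes rests on all 4 libraries, being 3475 without WT replicate 1, 3409 without WT replicate 2, 3872 without KO replicate 1 and 3574 without KO replicate 2. In each of these 4 fits 2749 of the 5142 genes, and 1548 of the 1739 genes at least 2-fold apart, stayed past the test. Outside chromosomes 1, 14, X and Y, 4061 of 10528 genes changed (38.6%), 2406 of them higher and 1655 lower. The counts of members past the test in each list below are to be read against these shares. Of the 2827 rises 394 belong to genes that passed the filter only through the KO libraries, and of the 2315 falls 113 to genes that passed it only through WT, so a direction was fixed for them by the filter.

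The most abundant changes, ranked by the difference in mean RPKM among genes at least 2-fold apart, involved pluripotency factors, metal and iron binding, glucose and nucleotide transport, and histones. Ftl1, the light chain of the iron store ferritin, was at 1592 and 1444 RPKM in the WT and 478 and 637 in the KO libraries (log2 fold change -1.40 with SE 0.18, edgeR adjusted p = 5.7e-05). Both KO values are below both WT values by the widest margin in RPKM of any gene that fell at least 2-fold. Zfp42 (Rex1), a zinc finger marker of naive ES cells, went from 753 and 707 to 66.9 and 76.2 RPKM. The metallothioneins Mt1 and Mt2, small proteins that bind zinc and copper, stood in the opposite direction. Mt2 was at 132 and 141 RPKM in the WT and 527 and 366 in the KO libraries (log2 fold change 1.75 with SE 0.20, edgeR adjusted p = 2.4e-05). Mt1 was at 111 and 127 RPKM in the WT and 401 and 248 in the KO libraries (adjusted p = 0.0024), and without KO replicate 1, the higher of the KO libraries, its adjusted p was 0.059.

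Several abundant genes of energy and amino acid metabolism moved. Slc2a3, a high-affinity glucose transporter, rose from 198 and 207 RPKM in the WT to 489 and 469.6 in the KO libraries (log2 fold change 1.29 with SE 0.10, edgeR adjusted p = 1.8e-06). The mitochondrial ADP/ATP carrier Slc25a4 rose from 154 and 159 to 288 and 324 RPKM. Its X-linked relative Slc25a5 rose from 188 and 180.4 to 443 and 496 RPKM. Tdh, the threonine dehydrogenase that mouse ES cells use to make glycine and acetyl-CoA, fell from 164 and 157 to 54.4 and 74.6 RPKM (log2 fold change -1.27 with SE 0.14, edgeR adjusted p = 2.1e-05). Glul, glutamine synthetase, fell from 116 and 119 to 29.1 and 34.1 RPKM (log2 fold change -1.85, adjusted p = 3.1e-07). Tdh lies on chromosome 14 and Glul on chromosome 1, and both fell further than the medians of those chromosomes. Tuba4a, an alpha-tubulin gene of chromosome 1, fell from 134 and 137 to 62.8 and 67.5 RPKM. Phlda2, an imprinted gene that restrains placental growth, fell from 139 and 137 to 43.5 and 46.2 RPKM.

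Rpl29 and 2 histone H2A genes had large changes among the abundant genes, but each belongs to a family of near-identical copies, so the assignment of their reads is uncertain. Rpl29, a protein of the large ribosomal subunit, went from 4.47 and 4.70 RPKM in the WT to 479 and 523 in the KO libraries, and in DKO cells it was at 423 and 401 CPM against 6.11 and 6.49 CPM in WT. Hist1h2ad and Hist1h2ah fell from 188 and 187 RPKM to 8.82 and 13.1 RPKM and from 148 and 145 RPKM to 6.80 and 11.8 RPKM. In the DKO libraries these histone genes were also low, at 8.53 and 14.1 CPM and 6.32 and 11.4 CPM against 143 and 143 CPM and 110.3 and 109 CPM in WT. Hist1h2ag, a neighbour, was at 108 and 117 RPKM in the WT and 166 and 343 in the KO libraries (adjusted p = 0.0027), and lost its call without KO replicate 2 (adjusted p = 0.057).

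**Figure D1:**
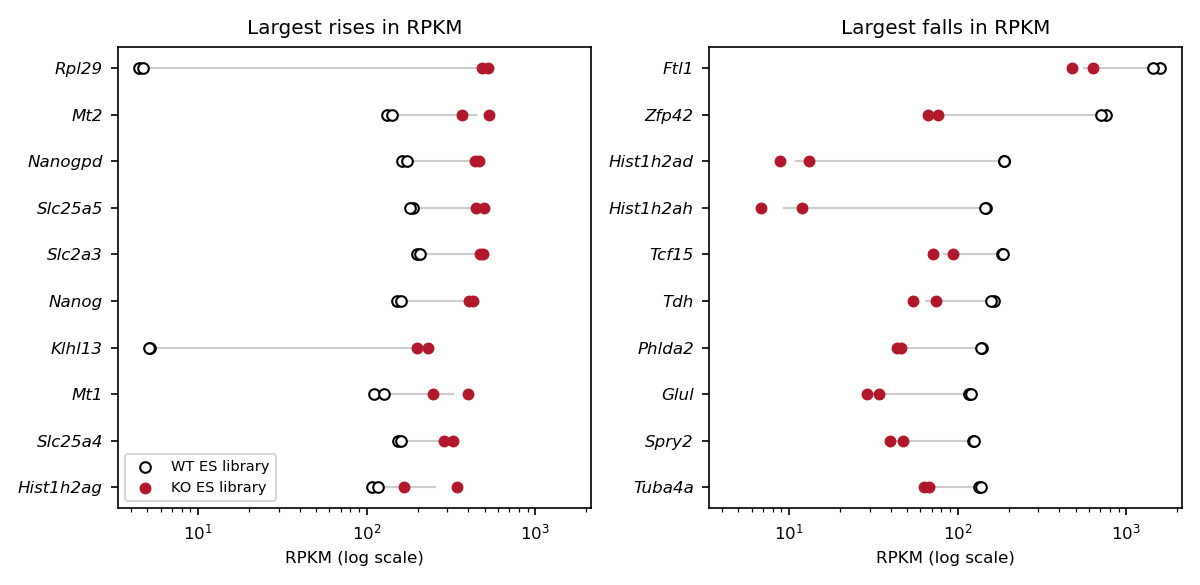
RPKM on a log axis in each WT (open circles) and KO (filled circles) ES library for the 10 genes with the largest rise and the 10 with the largest fall in mean RPKM among genes at least 2-fold apart, with a line joining the means. No gene drawn has overlapping groups, and the KO libraries differ from each other most for Mt1, Mt2, Hist1h2ag, Hist1h2ad and Hist1h2ah.

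By fold rather than by abundance, the largest rises among genes reaching 5 RPKM were those of genes almost silent in WT. Serpina3m, a serine protease inhibitor gene, went from 0.168 and 0 CPM in the WT to 81.7 and 73.2 in the KO libraries (log2 fold change 9.81 with SE 0.35, edgeR adjusted p = 2.8e-09). Smtnl1, a smoothelin-like gene known from muscle, went from 0.586 and 0.531 to 45.9 and 50.8 CPM (log2 fold change 6.45, adjusted p = 1.2e-08). Both were nearly off in WT and read in both KO libraries. In the DKO libraries Serpina3m was at 6.37 and 5.68 CPM and Smtnl1 at 0.271 and 0.0411 CPM. Smtnl1 was at 0.173 and 0.155 RPKM in WT, and its DKO values in CPM were below its WT values. It thus passed the filter only through the KO libraries, so its direction was fixed by the filter. Klhl13, an X-linked adaptor of a ubiquitin ligase whose dose is known to affect ES cell differentiation, rose from 32.2 and 32.1 to 1445 and 1252 CPM (log2 fold change 5.42 with SE 0.15, edgeR adjusted p = 5.4e-10), far beyond the median of its chromosome. Among the largest falls outside chromosome Y, Dynlt1b, a dynein light chain, went from 37.9 and 35.4 to 1.12 and 2.65 CPM. The pseudogene Tmem181b-ps went from 57.9 and 50.5 to 0.456 and 1.43 CPM. Both are copies of other genes and were also low in DKO, at 0.903 and 2.22 CPM and 1.26 and 1.73 CPM. Apoa2, an apolipoprotein of high-density lipoprotein on chromosome 1, fell from 7.08 and 7.31 to 0.87 and 0.52 CPM (log2 fold change -3.33, adjusted p = 2.5e-05). All such comparisons with DKO share the WT libraries, so their values stand here side by side only.

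Genes of the oocyte and of the 2-cell embryo were higher in KO. Of 29 genes of the 2-cell-like state, 8 passed the filter on low values, and 6 of these rose and none fell. Of 56 Pramel, Obox and oocyte genes, 17 passed the filter, 12 rose and none fell. A gene that is nearly absent from WT passes the filter only if reads are present in the other libraries, so these counts lean towards rises. Of the rises, 5 of the 6 and 6 of the 12 belong to genes that passed only through the KO libraries. Zscan4 genes encode zinc finger proteins of the 2-cell embryo that mark a rare state in ES cell culture. Zscan4c was at 0 and 0.163 CPM in the WT and 8.99 and 6.81 in the KO libraries (log2 fold change 6.52 with SE 0.59, edgeR adjusted p = 4.6e-06). Zscan4f was at 0.0838 and 0 CPM in the WT and 9.53 and 7.07 in the KO libraries (log2 fold change 7.51, adjusted p = 3.9e-06). Zscan4a had no reads in either WT library and 5.76 and 4.68 CPM in KO, and at days 8 and 12 the Zscan4c values in KO were 4.62 and 4.87 CPM. The 4 neighbours Zscan4a, Zscan4c, Zscan4e and Zscan4f, near-identical copies on chromosome 7, all rose at least 2-fold. Gm4340, a member of a repeated family read in 2-cell embryos, went from 0.335 and 0.449 to 25.2 and 24.2 CPM (log2 fold change 5.99 with SE 0.32, edgeR adjusted p = 7.3e-08).

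Among the oocyte genes, some were well above the floor in WT too. Ooep, which encodes an oocyte protein of the subcortical maternal complex, rose from 29.9 and 28.98 CPM in the WT to 146 and 155 in the KO libraries (log2 fold change 2.38 with SE 0.12, edgeR adjusted p = 4.4e-08). Zp3, the sperm receptor of the egg coat, rose from 3.35 and 4.94 to 24.4 and 29.7 CPM. Sohlh2, a regulator of early oocytes and spermatogonia, rose from 2.93 and 3.84 to 19.23 and 18.6 CPM. Nlrp4f, of an oocyte NLRP family, rose from 22.3 and 25.6 to 73.4 and 55.3 CPM (log2 fold change 1.45, adjusted p = 2.1e-05). For all 4 genes the KO libraries lie above the WT libraries with no overlap. Sohlh2, like Pramel6 and Obox6 below, passed the filter only through the KO libraries, so its direction was fixed by the filter. The Pramel family, leucine-rich repeat proteins of early embryos, gave the largest folds, with Pramel6 at 0.0419 and 0.163 CPM in the WT and 76.2 and 59.4 in the KO libraries (log2 fold change 9.32, adjusted p = 8.2e-09). Obox6, a homeobox gene of oocytes, was at 0.586 and 0.531 CPM in the WT and 48.8 and 50.3 in the KO libraries. In DKO cells Pramel6 had no reads in either library, Zscan4c was at 0.181 and 0.0823 CPM, Obox6 at 0 and 0.247 CPM and Ooep at 40.5 and 39.2 CPM, all below both KO values.

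The germline genes carry the promoters shown here, since the motifs of the factors known to silence such genes can be read in them. TTCCCGC, with GCGGGAA on the other strand, is a sequence bound by E2F proteins including E2F6, and CACGTG is the E-box bound by MAX with its partners, among them MGA. The 250 bases upstream of the start of 3 members follow, 5′ to 3′ on the gene's strand, from RefSeq's annotation of GRCm38.p6, with these motifs in capitals. These 3 were chosen among germline genes that rose in KO and hold TTCCCGC on either strand. Smc1b is a meiotic subunit of cohesin (chr15:85131958-85132207, minus strand). Hormad1 is a protein of the meiotic chromosome axis (chr3:95559427-95559676, plus strand). Tuba3a is an alpha-tubulin of testis (chr6:125286082-125286331, minus strand).
Smc1b: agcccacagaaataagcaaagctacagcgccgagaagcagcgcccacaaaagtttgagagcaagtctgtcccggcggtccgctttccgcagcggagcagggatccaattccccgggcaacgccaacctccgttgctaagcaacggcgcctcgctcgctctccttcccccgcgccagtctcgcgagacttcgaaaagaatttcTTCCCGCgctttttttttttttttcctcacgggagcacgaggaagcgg
Hormad1: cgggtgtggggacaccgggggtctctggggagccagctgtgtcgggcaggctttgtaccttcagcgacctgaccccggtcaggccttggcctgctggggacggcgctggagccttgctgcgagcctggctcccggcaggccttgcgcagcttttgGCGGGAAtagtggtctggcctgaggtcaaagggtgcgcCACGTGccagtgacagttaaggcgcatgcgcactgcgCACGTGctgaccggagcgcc
Tuba3a: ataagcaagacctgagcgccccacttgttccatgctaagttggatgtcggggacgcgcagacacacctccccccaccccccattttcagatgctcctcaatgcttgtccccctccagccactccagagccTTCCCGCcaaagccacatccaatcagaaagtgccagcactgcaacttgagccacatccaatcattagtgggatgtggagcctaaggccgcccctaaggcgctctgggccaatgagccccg
The Smc1b window holds 25 CpG dinucleotides and 1 TTCCCGC, the Hormad1 window 19 CpG, 1 GCGGGAA and 2 CACGTG, and the Tuba3a window 8 CpG and 1 TTCCCGC.

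Of 69 germline and meiosis genes 32 were tested, and 22 of these rose and 4 fell, with 10 of the 22 passing the filter only through the KO libraries. Tuba3a was at 7.29 and 7.43 CPM in the WT and 112 and 125 in the KO libraries (log2 fold change 4.04 with SE 0.15, edgeR adjusted p = 3.2e-09). Smc1b was at 0.293 and 0.204 CPM in the WT and 19.7 and 19.6 in the KO libraries (log2 fold change 6.30 with SE 0.32, edgeR adjusted p = 4.5e-08). Hormad1 was at 0.126 and 0.286 CPM in the WT and 3.85 and 3.77 in the KO libraries (log2 fold change 4.20, adjusted p = 2.9e-05). For all 3 promoters shown, both KO libraries were far above both WT libraries and close to each other. The rise and the motif were the grounds for choosing these genes, so neither is a result about them. Smc1b and Hormad1 also passed the filter only through the KO libraries, as did Dazl and Fkbp6, which follow. The direction of these genes was fixed by the filter. Dazl, an RNA-binding protein that licenses germ cells, went from 1.21 and 0.735 to 17.3 and 18.6 CPM (log2 fold change 4.23, adjusted p = 4.5e-07). Fkbp6, needed for meiotic pairing and piRNA function, went from 0.879 and 0.857 to 7.54 and 9.41 CPM. Tex19.1, a testis and placenta gene that restrains retrotransposons, rose from 63.9 and 67.5 to 218 and 234 CPM (log2 fold change 1.81 with SE 0.12, edgeR adjusted p = 3.5e-07). Rpl10l, the testis copy of a ribosomal protein gene, rose from 24.7 and 26.8 to 132 and 148 CPM. Not every germline gene moved this way. Tdrd5, on chromosome 1, fell from 7.29 and 8.78 to 2.53 and 2.25 CPM. Rec8, on chromosome 14, fell from 13.5 and 11.3 to 5.39 and 5.12 CPM. Ddx4, the VASA helicase of germ cells, was at 9.46 and 10.98 CPM in the WT and 6.80 and 6.63 in the KO libraries and fell (log2 fold change -0.58, adjusted p = 0.035), a call lost in each fit that left out 1 of the 4 libraries (adjusted p up to 0.23). Sycp3, an axis protein of meiosis, was at 1.68 and 1.06 CPM in the WT and 2.74 and 2.65 in the KO libraries (adjusted p = 0.055). Of the 32 genes 25 lie outside chromosomes 1, 14, X and Y.

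In DKO cells the same members stood low. Tuba3a was at 0.406 and 0.617 CPM, Smc1b at 0.587 and 0.699 CPM, Dazl at 0.587 and 0.699 CPM and Tex19.1 at 14.9 and 13.1 CPM. In the window from 250 bases before to 50 after the start, on either strand, TTCCCGC was found in 10 of the 30 tested germline genes that have a promoter in the table (33.3%), and in 6 of 21 that rose (28.6%). Of all 27025 promoters given there 4.66% hold it. CACGTG was found in 6 of the 30 (20%), in 4 of the 21 (19%) and in 7.24% of all promoters. The 2 motifs do not overlap each other, a match is a description of letters and not a bound site, and a check against all genes tested is void because only 78.4% of those have a promoter in the table. Among the 9440 tested genes that have one, 9.03% hold TTCCCGC and 10.6% hold CACGTG, shares above those of all promoters. E2f6 and Mga themselves did not pass the test, with E2f6 at 35.2 and 37.8 CPM in the WT and 36.7 and 37.2 in the KO libraries (adjusted p = 0.81).

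**Figure D2:**
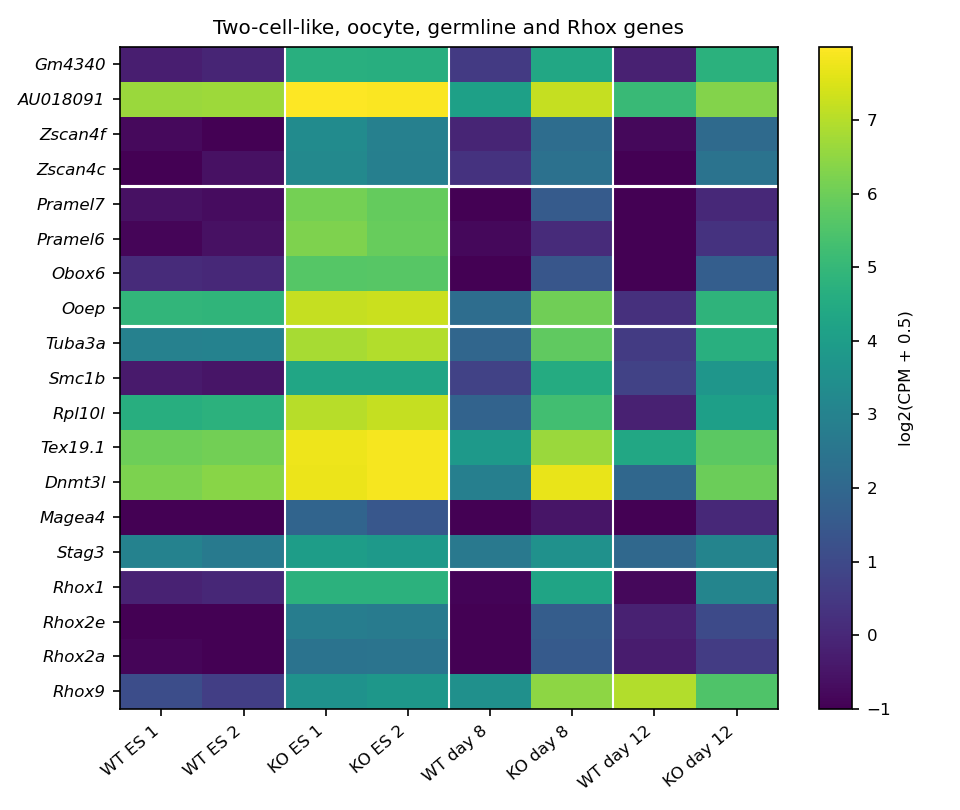
Colour map of log2(CPM + 0.5) in the WT and KO libraries of ES cells and of days 8 and 12 of differentiation (columns). Rows are the named genes of the 2-cell-like, oocyte, germline and Rhox lists that rose in KO ES cells, and members that fell are not drawn. Both KO ES columns are brighter than both WT ES columns for every gene drawn, which follows from that choice. At days 8 and 12 the KO column is the brighter one for all but Rhox9 at day 12.

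The Rhox cluster is a set of homeobox genes on chromosome X that are read in testis, ovary and placenta. Of 21 members 5 passed the filter, and none of the 5 would have passed it without the KO libraries, so their rise was fixed by the filter and their values are a description. Rhox1 went from 0.419 and 0.49 CPM in the WT to 27.1 and 27.01 in the KO libraries (log2 fold change 5.91 with SE 0.30, edgeR adjusted p = 5.2e-08). Rhox6 went from 1.55 and 2.04 to 8.04 and 9.63 CPM. Rhox9 went from 1.68 and 1.10 to 11.6 and 13.2 CPM. Their copies Rhox2a and Rhox2e went from no more than 0.0419 CPM in WT to between 4.89 and 6.47 CPM in KO. Other tight groups of X-linked genes held large rises too. The 6 neighbours from Gm5634 to Xk, which include the ferritin-like gene Fthl17, had a median log2 fold change of 5.84. The 10 neighbours from Zfp185 to Xlr3b, which include the Xlr genes of lymphocytes and gonads, had a median of 4.15.

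Trophoblast genes, which mark the lineage of the placenta, were partly higher. Of 31 genes 19 were tested, 11 rose and 3 fell, with 4 of the 11 passing the filter only through the KO libraries. Gata3, a factor that specifies trophoblast, was at 0.126 and 0.163 CPM in the WT and 9.37 and 11.1 in the KO libraries (log2 fold change 6.12 with SE 0.41, edgeR adjusted p = 3.9e-07). It passed the filter only through the KO libraries, so its direction was fixed by the filter. Hand1, of trophoblast giant cells and mesoderm, was at 0.879 and 0.612 CPM in the WT and 5.72 and 6.42 in the KO libraries. Esx1, an X-linked homeobox gene of placenta, was at 5.70 and 7.35 CPM in the WT and 26.2 and 29.7 in the KO libraries. The keratin gene Krt8 fell from 14.4 and 14.4 to 7.63 and 8.98 CPM. Eomes, a factor of trophoblast stem cells, and Tead4, which acts at the start of the lineage, did not pass the test, with Eomes at 13.9 and 16.9 CPM in the WT and 12.5 and 15.4 in the KO libraries and Tead4 at 32.3 and 37.5 CPM in the WT and 38.5 and 39.8 in the KO libraries. The 7 trophoblast markers summed to 3.003 and 3.401 RPKM in WT and 5.33 and 6.44 RPKM in KO, with Elf5 under 0.1 RPKM in all 4 libraries. Their part in the changes of other genes was not tested.

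Neural and Hox genes were also higher in part. Of 47 neural genes 27 were tested, 13 rose and 5 fell, and of 39 Hox genes 9 were tested, 6 rose and none fell. Hoxb13 and Hoxc12 passed the filter only through the KO libraries, as did 2 of the 13 neural genes, so these counts lean towards rises. Olig1, a factor of oligodendrocyte precursors, was at 1.63 and 1.35 CPM in the WT and 76.6 and 93.5 in the KO libraries (log2 fold change 5.86 with SE 0.21, edgeR adjusted p = 2.8e-09), and its neighbour Olig2 at 0.168 and 0.367 CPM in the WT and 89.2 and 93.1 in the KO libraries. Nefm, a neurofilament subunit on chromosome 14, was at 6.62 and 5.02 CPM in the WT and 74.9 and 88.8 in the KO libraries (log2 fold change 3.84 with SE 0.18, edgeR adjusted p = 3e-08). Neurog1, a proneural factor, was at 0.168 and 0.0816 CPM in the WT and 10.5 and 11.1 in the KO libraries. It is among the neural genes that passed the filter only through the KO libraries. Nes, which encodes nestin of neural progenitors, rose from 70.9 and 69.8 to 148 and 186 CPM. Other neural genes fell, Nkx6-3 from 41.3 and 37.3 to 0.87 and 1.13 CPM. Sox11 fell from 145 and 143 to 86.8 and 89.4 CPM. Hoxb9 rose from 1.05 and 0.694 to 6.63 and 4.90 CPM. Hoxb13 rose from 0.461 and 0.449 to 3.73 and 3.30 CPM. Hoxc13 rose from 3.31 and 1.96 to 13.3 and 15.7 CPM. In RNA of a whole culture, more cells of a type and more RNA per cell cannot be told apart.

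Core pluripotency genes moved in both directions. Of 36 genes 35 were tested, 14 rose and 13 fell, with 8 falls without KO replicate 2. Pou5f1 (Oct4), the central factor of pluripotency, was at 1785 and 1788 CPM in the WT and 1637 and 2027 in the KO libraries (log2 fold change 0.06, adjusted p = 0.7), and Sox2 was at 2141 and 2137 CPM in the WT and 1598 and 1849 in the KO libraries (adjusted p = 0.074). Nanog rose from 395 and 422 to 1124 and 1083 CPM (log2 fold change 1.46 with SE 0.11, edgeR adjusted p = 1.3e-06). Nanogpd, a copy of Nanog by its name, was at 275 and 298 CPM in the WT and 801 and 765 in the KO libraries. The assignment of reads between Nanog and Nanogpd is uncertain. Dppa3 (Stella), which shields against DNA methylation in the egg, rose from 2.72 and 1.59 to 14.5 and 15.7 CPM. Gdf3, a TGF-beta ligand beside it on chromosome 6, rose from 137 and 148 to 412 and 447 CPM. Dppa5a, an RNA-binding ES marker, rose from 336 and 318 to 629 and 567 CPM. Manba, a lysosomal mannosidase enriched in ES cells, rose from 102 and 109 to 437 and 396 CPM (log2 fold change 2.01 with SE 0.12, edgeR adjusted p = 1.5e-07). Fbxo15, a classical ES cell reporter gene, rose from 50.2 and 48.4 to 166 and 151 CPM (log2 fold change 1.71, adjusted p = 9.5e-07). Tcl1, a cofactor of AKT, rose from 66.8 and 66.8 to 119 and 109 CPM.

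The falls took in other naive factors. Besides Zfp42, Gbx2, a target of LIF and STAT3 on chromosome 1, fell from 315 and 341 CPM in the WT to 70.1 and 77.7 in the KO libraries (log2 fold change -2.12 with SE 0.20, edgeR adjusted p = 6.7e-06). Tfcp2l1, another such target on chromosome 1, fell from 1286 and 1324 to 715 and 638 CPM. Nr5a2, on the same chromosome, fell from 129 and 135 to 76.3 and 73.4 CPM. Stat3 itself fell from 183 and 178 to 111 and 109.7 CPM (log2 fold change -0.68, adjusted p = 0.0004). Lifr, a subunit of the LIF receptor, fell from 110.4 and 113 to 78.8 and 69.4 CPM. Lin28a, which blocks maturation of let-7 microRNAs, fell from 845 and 897 to 437 and 457 CPM (log2 fold change -0.93, adjusted p = 2.4e-05). Esrrb and Klf5 fell by little, by 0.32 and 0.35 on the log2 scale, Klf4 lay at the threshold (log2 fold change -0.40, adjusted p = 0.046), and Klf2 and Tbx3 did not pass the test. The calls of Klf4 and Klf5 were lost without any 1 of the 4 libraries (adjusted p up to 0.19 and 0.18), that of Esrrb without WT replicate 1 or 2 or KO replicate 1 (up to 0.23), and that of Lifr without KO replicate 2 (0.053). Socs3, the inhibitor that STAT3 induces, fell from 552 and 519.6 to 292 and 321 CPM (log2 fold change -0.78, adjusted p = 0.00034). The rise of Lif, the ligand, stands in a run of 4 neighbours on chromosome 11, Gatsl3, Osm, Lif and Hormad2, all at least 2-fold higher in KO. Hormad2 passed the filter only through the KO libraries. Lif was at 7.79 and 4.82 CPM in the WT and 26.8 and 26.3 in the KO libraries. Osm, a related cytokine, was at 0.0838 and 0 CPM in the WT and 15.8 and 17.7 in the KO libraries.

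Genes of the primed epiblast did not move as a block. Of 21 genes 19 were tested, 10 rose and 4 fell, with 6 rises without KO replicate 2. Dnmt3b, a de novo DNA methyltransferase, rose from 153 and 153 CPM in the WT to 273 and 269 in the KO libraries (log2 fold change 0.85 with SE 0.12, edgeR adjusted p = 0.00011). Pou3f1 (Oct6), a factor of the primed epiblast, went from 51.2 and 57.2 to 73.5 and 94.8 CPM, with an adjusted p of 0.055 without KO replicate 2. Otx2, a leading factor of the primed state on chromosome 14, fell from 5.82 and 6.08 to 2.61 and 2.60 CPM (log2 fold change -1.16, adjusted p = 0.00048). Sox4 fell from 186 and 194 to 90.99 and 88.02 CPM.

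Several targets and feedback inhibitors of FGF and ERK signalling fell, and some of the ligands rose. Of 39 genes 32 were tested, 11 rose and 12 fell, with 7 rises without KO replicate 1. Spry4, an inhibitor that ERK induces, was at 736 and 743 CPM in the WT and 166 and 151 in the KO libraries (log2 fold change -2.20 with SE 0.11, edgeR adjusted p = 5.6e-08). Dusp6, the phosphatase that switches off ERK, was at 145 and 149 CPM in the WT and 38.3 and 43.9 in the KO libraries (log2 fold change -1.81 with SE 0.12, edgeR adjusted p = 3.2e-07). Spry2, on chromosome 14, was at 495 and 508 CPM in the WT and 161 and 194 in the KO libraries. In all 3 genes both KO libraries were far below both WT libraries. Etv4, a target of ERK, fell from 223 and 226 to 69.5 and 65.6 CPM (log2 fold change -1.70, adjusted p = 5.1e-07). Spred1, an inhibitor of RAS, fell from 84.3 and 91.8 to 40.2 and 29.2 CPM. Egr1, an immediate target, fell from 125 and 154 to 69.6 and 65.95 CPM. Not all targets fell, since Etv5 was at 634 and 628 CPM in the WT and 665 and 666 in the KO libraries (adjusted p = 0.45). Spry1 was at 49.4 and 50.2 CPM in the WT and 41.8 and 44.01 in the KO libraries (adjusted p = 0.29). Of the ligands, Fgf4, which ES cells make for themselves, rose from 283 and 261 to 571 and 558 CPM (log2 fold change 1.08 with SE 0.11, edgeR adjusted p = 8.4e-06). Fgf3 rose from 2.68 and 2.41 to 11.3 and 12.1 CPM. The X-linked intracellular Fgf13 rose from 4.82 and 5.27 to 41.1 and 39.8 CPM. Fgf15, a gut and embryo ligand, fell from 19.9 and 21.7 to 4.19 and 4.64 CPM. Fgf17, on chromosome 14, fell from 143 and 155 to 47.9 and 53.7 CPM. Dusp9, an X-linked ERK phosphatase whose dose affects differentiation of ES cells, rose from 359 and 342 to 1019 and 1116 CPM (log2 fold change 1.64 with SE 0.11, edgeR adjusted p = 3.9e-07). Elk1, an X-linked factor that ERK phosphorylates, rose from 44.9 and 42.99 to 92.7 and 91.3 CPM. In DKO cells Dusp6 was at 366 and 354 CPM and Spry2 at 1009 and 887 CPM, above both WT libraries, while Spry4 was at 457 and 424 CPM and Etv4 at 109 and 96.4 CPM.

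In BMP signalling the ligand Bmp4 and the target Id1 fell together. Of 30 genes 21 were tested, 6 rose and 7 fell, and without either WT replicate the counts were equal at 5. Bmp4, on chromosome 14, was at 190.3 and 207 CPM in the WT and 25.7 and 28.3 in the KO libraries (log2 fold change -2.85 with SE 0.13, edgeR adjusted p = 1.6e-08). Id1, the inhibitor of differentiation that BMP4 induces in ES cells, was at 146 and 143 CPM in the WT and 32.6 and 37.1 in the KO libraries (log2 fold change -2.02 with SE 0.12, edgeR adjusted p = 2e-07). Of the other Id genes, Id2, Id3 and Id4 did not pass the test, with Id3 at 54.4 and 54.3 CPM in the WT and 39.8 and 50.7 in the KO libraries (adjusted p = 0.17). The mediator Smad1 fell from 43.3 and 41.5 to 29.8 and 28.4 CPM, with an adjusted p of 0.065 without WT replicate 1. Smad5, its relative, fell from 73.8 and 74.5 to 47.3 and 38.9 CPM. Other members rose. The ligand Bmp6 went from 4.73 and 3.92 to 20.9 and 17.2 CPM and Bmp8a, another ligand, also rose. These 2 of the 6 rises belong to genes that passed the filter only through the KO libraries, so their direction was fixed by it. Nog, a secreted antagonist, rose from 0.754 and 0.898 to 4.97 and 4.51 CPM. Smad6, an inhibitor that the pathway induces, rose from 12.4 and 11.6 to 34.3 and 43.4 CPM (log2 fold change 1.72, adjusted p = 6.3e-06). In DKO cells Bmp4 was at 248 and 216 CPM and Id1 at 220.0 and 197 CPM.

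In the Nodal and activin branch of TGF-beta signalling, Nodal and its processing enzymes rose and an activin subunit fell. Of 32 genes 25 were tested, 8 rose and 7 fell, and 4 falls were found without any 1 of the 4 libraries. Inhbb, which encodes the subunit of activin B, lies on chromosome 1 and fell from 507 and 513 CPM in the WT to 73.1 and 61.2 in the KO libraries (log2 fold change -2.90 with SE 0.17, edgeR adjusted p = 1.6e-07), much further than the median of that chromosome. Nodal rose from 83.7 and 93.6 to 141 and 173 CPM (log2 fold change 0.85, adjusted p = 0.00073). Furin, a protease that cleaves its precursor, rose from 37.4 and 34.5 to 67.1 and 79.003 CPM. Pcsk6, a related protease, rose from 45.2 and 45.6 to 101 and 109 CPM (log2 fold change 1.24 with SE 0.11, edgeR adjusted p = 4.7e-06). Of the feedback inhibitors that Nodal induces, Lefty2 rose from 515 and 511 to 841 and 924 CPM. Lefty1 was at 372 and 386 CPM in the WT and 424 and 473 in the KO libraries (adjusted p = 0.1). Both lie on chromosome 1, where most genes were lower. Tgfb1 fell from 29.02 and 23.2 to 8.46 and 11.7 CPM.

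Wnt genes, the pathway that the GSK3 inhibitor in the medium acts on in both groups, were mixed. Of 58 genes 39 were tested, 15 rose and 12 fell. The receptors Fzd5 and Fzd7, both on chromosome 1, fell, Fzd5 from 822 and 828 CPM in the WT to 239 and 231 in the KO libraries (log2 fold change -1.78 with SE 0.12, edgeR adjusted p = 3.3e-07). Fzd7 fell from 554 and 529 to 160.2 and 170.1 CPM (log2 fold change -1.69, adjusted p = 3.3e-07). Cdx1, a target of Wnt in the gastrulating embryo, fell from 68.1 and 69.6 to 13.8 and 20.1 CPM. Ccnd2, cyclin D2, fell from 216 and 218 to 26.4 and 23.2 CPM. Myc fell from 218 and 224 to 61.8 and 74.6 CPM. Axin2, the most general target of the pathway, was at 32.5 and 36.5 CPM in the WT and 29.8 and 30.6 in the KO libraries (adjusted p = 0.36), its KO libraries just under its WT libraries. Tcf7l1, the repressor that dampens Nanog, rose from 106 and 113 to 183 and 194 CPM (log2 fold change 0.82, adjusted p = 0.00024). Notum, a secreted inhibitor, rose from 82.8 and 88.8 to 145 and 156 CPM. Porcn, the X-linked enzyme that acylates Wnt ligands, rose from 24.4 and 23.6 to 59.1 and 52.99 CPM. The ligand Wnt8a rose from 0.754 and 0.694 to 4.56 and 5.55 CPM. It passed the filter only through the KO libraries, so its direction was fixed by the filter. The direction of the count turned with the filter, since among members of at least 5 RPKM 5 rose and 8 fell, and without KO replicate 2 both counts were 12.

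**Figure D3:**
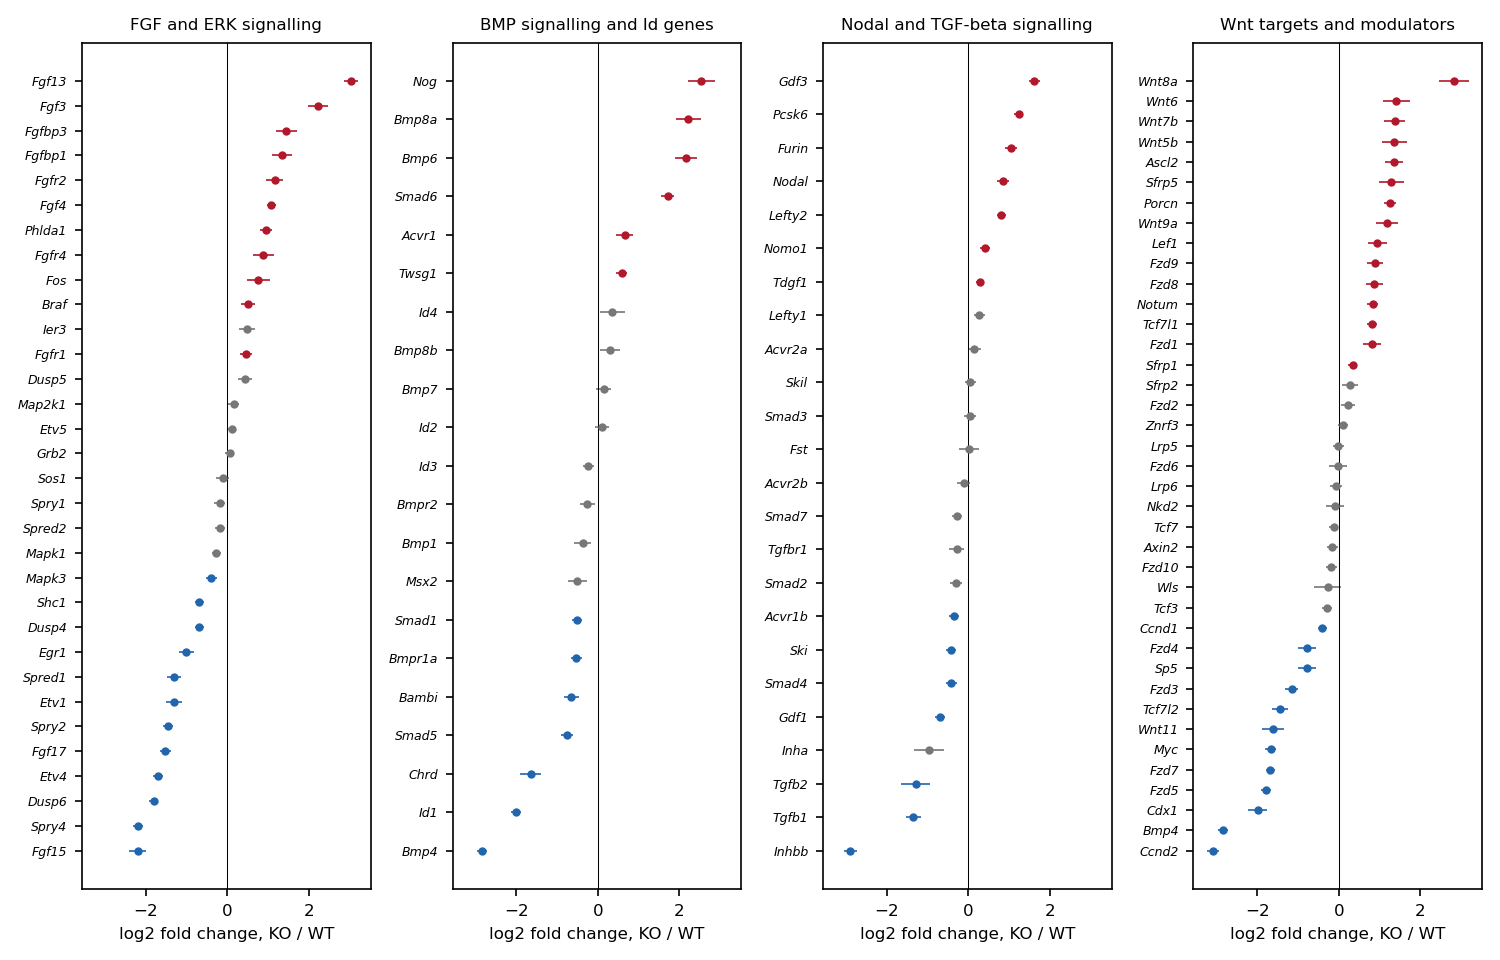
Log2 fold change of KO against WT ES cells with its standard error for the tested members, 1 left out, of the FGF and ERK, BMP, Nodal and TGF-beta, and Wnt lists (red higher, blue lower, grey not past the test). Each list spans falls and rises, from the falls of Fgf15, Spry4, Bmp4, Inhbb and Ccnd2 to the rises of Fgf13, Nog, Gdf3 and Wnt8a.

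Notch genes mostly rose where they changed. Of 16 tested of 22, 9 rose and 2 fell, none of them on chromosomes 1, 14, X or Y. The ligand Dll1 rose from 3.31 and 3.31 CPM in the WT to 10.4 and 10.1 in the KO libraries (log2 fold change 1.66 with SE 0.17, edgeR adjusted p = 1.2e-05). The receptor Notch4 rose from 33.97 and 34.8 to 84.9 and 88.5 CPM. Lfng, a sugar transferase that tunes ligand binding, rose from 4.57 and 3.59 to 9.24 and 12.4 CPM. The receptor Notch1 and the transferase Mfng also rose. Hes1, the best known target, fell from 67.5 and 61.9 to 31.5 and 38.4 CPM (log2 fold change -0.86, adjusted p = 0.00025), and Notch2 fell from 79.5 and 69.8 to 54.5 and 53.5 CPM, a call lost without WT replicate 1 or KO replicate 1 or 2 (adjusted p up to 0.19). Of Hippo and actin targets 21 were tested, 8 rose and 1 fell, with 4 rises without WT replicate 2. Amotl2, an inhibitor that YAP induces, rose from 65.7 and 74.95 to 146 and 149 CPM (log2 fold change 1.10 with SE 0.12, edgeR adjusted p = 2.4e-05). Cyr61, a matricellular target, rose from 11.6 and 14.9 to 33.6 and 30.7 CPM.

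Chromatin regulators changed in specific members. In the H4K20 list of 9 tested genes, Suv420h1 and Setd8 did not pass the test (adjusted p = 0.41 and 0.72), with Suv420h1 at 44.7 and 49.8 CPM in the WT and 40.5 and 43.5 in the KO libraries. The demethylases Phf2 and the X-linked Phf8 rose, Phf2 from 14.7 and 13.5 to 24.6 and 23.9 CPM. Phf8 went from 56.9 and 55.1 to 100.2 and 83.5 CPM. Trp53bp1, whose protein binds dimethylated H4K20 at DNA breaks, fell from 126 and 132 to 98.8 and 91.2 CPM (log2 fold change -0.41, adjusted p = 0.0097), a call lost without WT replicate 1 or 2 or KO replicate 2 (up to 0.14). Of 26 genes of H3K9 methylation and repeat silencing, 5 rose and 5 fell. Without WT replicate 1 the counts were 2 and 3, without WT replicate 2 they were 4 and 3, without KO replicate 1 they were 2 and 3, and without KO replicate 2 they were 5 and 2. Those that fell most, Setdb2, Mphosph8 and D14Abb1e, lie on chromosome 14, and those that rose most, Atrx and Suv39h1, on chromosome X. Mphosph8 had an adjusted p of 0.095 without KO replicate 1, and D14Abb1e one of 0.11 without KO replicate 2. Suv39h2, a trimethylase of H3K9 in heterochromatin on chromosome 2, fell from 70.02 and 71.1 to 53.3 and 52.1 CPM (log2 fold change -0.39, adjusted p = 0.047), a call lost without any 1 of the 4 libraries (up to 0.19). Setdb1, Ehmt2, Trim28 and the HP1 genes Cbx1, Cbx3 and Cbx5 did not pass the test, with Cbx5 at 605 and 648 CPM in the WT and 758 and 582 in the KO libraries (adjusted p = 0.5).

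Of 20 tested genes of the DNA methylation machinery, 8 rose and 2 fell. Tdg, the glycosylase that excises oxidised methylcytosine, had the largest change among those at over 10 CPM in WT. It went from 10.2 and 10.3 CPM in the WT to 60.1 and 60.7 in the KO libraries (log2 fold change 2.59 with SE 0.16, edgeR adjusted p = 2e-07). Dppa3, also of this list and lower in WT, changed more (log2 fold change 2.83). In DKO cells Tdg was at 48.6 and 63.4 CPM, also above both WT libraries. Dnmt3l, the cofactor of de novo methylation in germ cells, rose from 74.6 and 84.7 to 214 and 232 CPM (log2 fold change 1.52 with SE 0.12, edgeR adjusted p = 1.4e-06). Tet3, a dioxygenase of methylcytosine, rose from 32.3 and 33.6 to 61.2 and 57.97 CPM. The maintenance enzyme Dnmt1 was at 314 and 313 CPM in the WT and 283 and 294 in the KO libraries (adjusted p = 0.53) and its partner Uhrf1 at 324 and 319 CPM in the WT and 348 and 359 in the KO libraries (adjusted p = 0.24), neither past the test. Tet1 was at 862 and 873 CPM in the WT and 721 and 509.8 in the KO libraries and fell by 0.46 on the log2 scale (adjusted p = 0.037), with KO replicate 2 the lower library. That call was lost without WT replicate 1 or 2 or KO replicate 2 (adjusted p up to 0.32).

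Of 36 tested Polycomb genes 15 rose and 3 fell, and outside chromosomes 1, 14, X and Y 12 rose and 2 fell. Bmi1, a subunit of canonical PRC1, rose from 4.36 and 3.02 CPM in the WT to 13.4 and 16.95 in the KO libraries. Scmh1, which binds PRC1, rose from 24.3 and 23.2 to 63.96 and 62.9 CPM (log2 fold change 1.45 with SE 0.13, edgeR adjusted p = 4.6e-06). Phc1, a subunit linked to Nanog, rose from 639 and 644 to 1111 and 1080.2 CPM (log2 fold change 0.80 with SE 0.10, edgeR adjusted p = 6.3e-05). L3mbtl2, of the germline-silencing complex with E2F6 and MGA, rose from 251 and 255 to 403 and 459 CPM, while Max fell from 146 and 149.8 to 109.8 and 100.2 CPM. Suz12, a core subunit of PRC2, rose from 334 and 316 to 497 and 485 CPM (log2 fold change 0.63, adjusted p = 0.0067). Without KO replicate 1 the adjusted p of Suz12 was 0.055, and Max lost its call without WT replicate 1 or 2 or KO replicate 2 (up to 0.078). Of 17 cohesin and CTCF genes 4 rose and 6 fell, the rises led by the meiotic Smc1b and Stag3 and the falls by Rec8, Wapal and Esco2 on chromosome 14, of which Wapal had an adjusted p of 0.055 and Esco2 one of 0.095 without KO replicate 2, and Esco2 also lost its call without WT replicate 1. Smc1b and Stag3 passed the filter only through the KO libraries. The order of the cohesin counts did not hold, since 3 rose and 2 fell without WT replicate 1, 3 rose and 3 fell without WT replicate 2, and 4 rose and 1 fell without KO replicate 2. Of 57 replication-dependent histone genes 9 rose and 7 fell, but without KO replicate 2, 4 rose and 6 fell. Reads of these genes are only partly captured by selection of polyadenylated RNA.

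Imprinted genes, expressed from 1 parental copy, changed in KO in 28 of 42 tested, 20 higher and 8 lower. Of the 20, 6 (Dio3, Dlk1, H19, Mirg, Nespas and Peg12) passed the filter only through the KO libraries. H19, the noncoding RNA beside Igf2, went from 1.38 and 1.80 CPM in the WT to 48.1 and 60.3 in the KO libraries (log2 fold change 5.11 with SE 0.27, edgeR adjusted p = 5.9e-08). In the same cluster of chromosome 7 Igf2, the growth factor, fell from 21.4 and 21.7 to 10.8 and 15.7 CPM (log2 fold change -0.68, adjusted p = 0.0083, 0.099 without KO replicate 1). Genes further along fell too. Cdkn1c, an inhibitor of the cell cycle, fell from 62.1 and 66.99 to 22.96 and 28.4 CPM. Phlda2 fell from 198 and 196 to 62.2 and 66.99 CPM. In the Dlk1 and Meg3 cluster of chromosome 12, Meg3 rose from 40.6 and 46.05 to 191 and 161 CPM (log2 fold change 2.05 with SE 0.14, edgeR adjusted p = 4e-07). Rian rose from 29.2 and 31.6 to 125 and 114 CPM. Mirg rose from 2.14 and 2.29 to 10.2 and 7.89 CPM. Dlk1 rose from 4.65 and 6.08 to 15.7 and 15.3 CPM. The Meg3, Rian and Mirg RNAs come from the maternal copy and Dlk1 from the paternal copy, and all 4 were higher in both KO libraries. In DKO cells Meg3 was at 1.40 and 1.11 CPM and Rian at 0.0903 and 0.329 CPM, below both WT libraries. Peg12, a paternally expressed gene, rose from 5.70 and 5.06 to 36.1 and 37.2 CPM. Plagl1, a zinc finger regulator of the imprinted network, rose from 26.6 and 22.8 to 109 and 87.5 CPM (log2 fold change 2.02, adjusted p = 7.6e-07). Grb10, an inhibitor of insulin and IGF receptors, fell from 271 and 259 to 113 and 106 CPM (log2 fold change -1.25 with SE 0.13, edgeR adjusted p = 1.4e-05). Igf1r fell from 98.8 and 95.6 to 38.9 and 29.7 CPM (log2 fold change -1.47, adjusted p = 7.2e-06) and Insr, the insulin receptor, rose from 33.5 and 29.8 to 66.5 and 54.5 CPM. Genes read from the maternal copy and genes read from the paternal copy are both found among the rises and among the falls.

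Targets of p53, the factor induced by DNA damage and other stress, rose in 24 of 39 tested, and none fell. Without 1 library the number was between 18 and 22. Outside chromosomes 1, 14, X and Y 18 rose. Cdkn1a (p21), which blocks the cyclin-dependent kinases, rose from 67.2 and 60.3 CPM in the WT to 164 and 201 in the KO libraries (log2 fold change 1.55 with SE 0.13, edgeR adjusted p = 2.6e-06). Ccng1, cyclin G1, rose from 139.7 and 148 to 372 and 353 CPM (log2 fold change 1.36 with SE 0.12, edgeR adjusted p = 3.4e-06). Mdm2, the ligase that degrades p53, rose from 117.6 and 116 to 197 and 182 CPM (log2 fold change 0.73, adjusted p = 0.00024). Bbc3 (Puma), which promotes cell death, rose from 52.9 and 46.5 to 104 and 112 CPM. Gdf15, a secreted stress factor, rose from 9.30 and 7.43 to 33.2 and 38.1 CPM. Ephx1, Btg2 and Phlda3 on chromosome 1, where most genes were lower, also rose, Ephx1 from 9.46 and 9.88 to 30.6 and 30.8 CPM. Trp53 itself was at 317 and 348 CPM in the WT and 268 and 304 in the KO libraries (adjusted p = 0.28). In the DKO libraries Mdm2 was at 314 and 348 CPM, Gdf15 at 80.7 and 45.8 CPM, Ccng1 at 327 and 390.0 CPM and Cdkn1a at 178 and 165 CPM, all above both WT libraries.

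Few genes of DNA replication and repair passed the test. Of 48 tested genes of replication licensing and the fork 4 rose and 6 fell, and 4 of the falls (Orc2, Mcm3, Prim2 and Mcm6) are of chromosome 1 and another, Wdhd1, of chromosome 14. Treslin's gene 5730590G19Rik (Ticrr), which starts replication, rose from 213 and 221 CPM in the WT to 464 and 423 in the KO libraries (log2 fold change 1.06 with SE 0.11, edgeR adjusted p = 1.1e-05). Without WT replicate 2, 3 of the replication genes fell. Of 41 genes of double-strand break repair and checkpoints 3 rose and 5 fell, and without KO replicate 2 both counts were 3, while 3 falls were found without WT replicate 1. Rad50, which tethers DNA ends, fell from 156 and 152 to 105 and 94.6 CPM. Brca2 fell from 146 and 133 to 99.3 and 83.5 CPM. The call of Brca2 was lost without WT replicate 1 or either KO replicate (adjusted p up to 0.18), that of Mcm6 without either WT replicate or KO replicate 2 (up to 0.088), and that of Prim2 without WT replicate 2 or KO replicate 2 (up to 0.09). Among 36 cell cycle genes 10 rose and 8 fell, against 6 and 5 without WT replicate 2 and 6 and 6 without KO replicate 1. The cyclin-dependent kinase Cdk6 fell from 48.96 and 44.6 to 16.1 and 14.3 CPM (log2 fold change -1.59, adjusted p = 4.3e-06). Ccnd3, cyclin D3, rose from 203 and 204 to 326 and 391 CPM. The inhibitors Cdkn2a and Cdkn2b, neighbours on chromosome 4, rose. Cdkn2a rose from 10.7 and 9.55 to 29.2 and 32.7 CPM. Cdkn2b went from 1.21 and 1.43 to 6.42 and 6.94 CPM. Cdkn2b passed the filter only through the KO libraries, so its direction was fixed by the filter.

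Of 39 genes of the integrated stress response and amino acid supply 17 rose and 2 fell, with 10 rises without WT replicate 2. Asns, asparagine synthetase, rose from 169 and 148 CPM in the WT to 295 and 304 in the KO libraries (log2 fold change 0.95 with SE 0.11, edgeR adjusted p = 3.1e-05). Pycr1, of proline synthesis, rose from 10.9 and 10.98 to 28.2 and 28.01 CPM. Nupr1, a stress-induced chromatin protein, rose from 14.7 and 13.8 to 30.2 and 28.3 CPM (log2 fold change 1.07, adjusted p = 4e-05). Of 20 immediate early genes 8 rose and 5 fell (3 without KO replicate 1), with Jun up from 19.7 and 20.5 to 54.5 and 60.4 CPM (log2 fold change 1.55 with SE 0.12, edgeR adjusted p = 1.7e-06). Dusp1, a stress phosphatase, rose from 72.96 and 74.5 to 139 and 153 CPM. Ier2, another early gene, fell from 684 and 702 to 384 and 436 CPM. Fos was at 3.94 and 2.41 CPM in the WT and 5.18 and 5.38 in the KO libraries, a low level in both groups, and its rise (adjusted p = 0.042) was lost without WT replicate 2 or either KO replicate (up to 0.35). Heat shock genes were mixed, 8 of 42 higher and 11 lower, and without 1 library 4 to 7 were higher and 7 to 9 lower. Bag3, a cochaperone of HSP70, fell from 128 and 128 to 45.8 and 47.8 CPM (log2 fold change -1.42 with SE 0.13, edgeR adjusted p = 4.7e-06), and Hspb8, its small heat shock partner, rose from 30.9 and 27.02 to 80.6 and 74.5 CPM (log2 fold change 1.45, adjusted p = 6.7e-06). Among heat shock members of at least 5 RPKM the order of the counts was the reverse, 8 higher and 6 lower.

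Genes of the interferon response, of sensing of double-stranded RNA and of antigen presentation numbered 29 tested of 57, with 16 higher and 7 lower, and 4 lower without WT replicate 1 or KO replicate 2. Ifitm3, a membrane protein that blocks viral entry, rose from 82.6 and 81.4 CPM in the WT to 239 and 239 in the KO libraries (log2 fold change 1.57 with SE 0.12, edgeR adjusted p = 8.5e-07). Bst2 (tetherin) rose from 32.3 and 25.5 to 79.9 and 74.8 CPM. The RNA-sensing synthetase Oas1a rose from 11.7 and 9.31 to 30.96 and 32.3 CPM (log2 fold change 1.62, adjusted p = 1.6e-05). Oas2 and Oas1g lie beside it on chromosome 5 and rose too, with Oas2 at 3.18 and 3.47 CPM in the WT and 8.21 and 10.5 in the KO libraries. Oas2 passed the filter only through the KO libraries, so its direction was fixed by the filter. Factors that drive such genes fell instead. Irf9, on chromosome 14, fell from 28.4 and 29.6 to 11.2 and 14.2 CPM. Stat2, on chromosome 10, fell from 53.1 and 48.4 to 36.7 and 35.4 CPM, a call lost without WT replicate 1 or KO replicate 2 (adjusted p up to 0.15). B2m, the light chain of MHC class I, fell from 18.8 and 15.3 to 8.08 and 8.11 CPM (log2 fold change -1.05, adjusted p = 0.00029). MHC and Oas genes have close copies, which leaves the assignment of reads among them uncertain.

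Glycolysis genes rose in 13 of 38 (8 without WT replicate 1) and fell in 7. Gapdh rose from 208 and 225 CPM in the WT to 330.4 and 339 in the KO libraries (log2 fold change 0.66, adjusted p = 0.00034). Tpi1, triose phosphate isomerase, rose from 217 and 224 to 395 and 397 CPM, and both lie in a part of chromosome 6 described below. The X-linked Pgk1, phosphoglycerate kinase, rose from 149 and 157 to 273 and 236 CPM. Ldha, lactate dehydrogenase, was at 755 and 793 CPM in the WT and 769.6 and 771 in the KO libraries. Eno1, enolase, was at 524 and 509 CPM in the WT and 496 and 515 in the KO libraries, and neither passed the test (adjusted p = 0.9 and 0.99). Pdk1, which closes pyruvate dehydrogenase, fell from 265 and 261 to 109 and 112 CPM (log2 fold change -1.22 with SE 0.14, edgeR adjusted p = 2.3e-05). Of 77 genes of oxidative phosphorylation 7 rose and 13 fell, and outside chromosomes 1, 14, X and Y 5 rose and 7 fell. The 82 cytosolic ribosomal protein genes held 13 rises and 8 falls, and 7 of each without WT replicate 1 or 8 of each without KO replicate 2. Without WT replicate 1 only 3 genes of oxidative phosphorylation rose and 6 fell, and without KO replicate 1, 7 fell. In the synthesis of cholesterol and fatty acids 8 of 37 rose and 8 fell, and without 1 library 5 or 6 rose and 3 to 6 fell. The X-linked isomerase Ebp rose from 21.9 and 22.9 to 144 and 154 CPM (log2 fold change 2.76 with SE 0.13, edgeR adjusted p = 2.5e-08), far above the chromosome X median. Idi1, an isomerase of isoprenoid synthesis, fell from 99.4 and 103.2 to 61.8 and 60.4 CPM.

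Adhesion genes mostly rose where they changed. Of 29 tested genes of cadherins, epithelial-mesenchymal transition and junctions 18 rose and 3 fell, none of them on chromosomes 1, 14, X or Y. Cdh1, E-cadherin of ES cell junctions, was at 661 and 648 CPM in the WT and 730.1 and 698 in the KO libraries (adjusted p = 0.26). The tight junction claudins Cldn3 and Cldn4 rose, Cldn3 from 5.11 and 4.08 to 36.1 and 39.1 CPM (log2 fold change 3.06 with SE 0.22, edgeR adjusted p = 7.3e-07). Cldn4 rose from 80.6 and 85.2 to 253 and 258 CPM (log2 fold change 1.65, adjusted p = 1.9e-06). The gap junction protein Gja1 rose from 224 and 239 to 457 and 429.8 CPM. Epcam, an epithelial adhesion molecule, rose from 108 and 99.4 to 198 and 190.5 CPM. Genes of the opposite state rose also, with Vim, vimentin, from 95.6 and 108 to 188 and 213 CPM. Twist1, a mesenchymal factor, rose from 5.70 and 3.63 to 15.5 and 17.04 CPM. Of 8 collagens tested of 41, 7 rose and none fell, among them Col9a2, of cartilage, from 9.42 and 9.14 to 41.3 and 48.6 CPM (log2 fold change 2.30 with SE 0.16, edgeR adjusted p = 5e-07). Col5a1, Col27a1 and Col2a1 among the 7 passed the filter only through the KO libraries, so the count of collagens leans towards rises. Col4a1, of basement membrane, rose from 18.7 and 21.6 to 34.3 and 33.3 CPM. Itgb5, a vitronectin receptor subunit, rose from 53.7 and 55.2 to 133 and 164 CPM (log2 fold change 1.48, adjusted p = 3.4e-06), and Fn1, fibronectin, on chromosome 1, fell from 1554 and 1542 to 749 and 629 CPM (log2 fold change -1.14, adjusted p = 1.1e-05). Feeder fibroblasts also express collagens, vimentin and Twist1, and the summed feeder markers were higher in KO as given above. A wider list of 26 feeder fibroblast and mesenchyme genes held 9 tested, of which 5 rose and 3 fell, and its sum went from 139 and 140 RPKM in WT to 117 and 116 RPKM in KO, Fn1 being the largest part of it. The falls, Fn1, Mmp2 and Pdgfrb, were each at least 2-fold, with Mmp2 going from 28.98 and 29.3 to 11.6 and 8.67 CPM. The part of feeder cells in these changes was not tested. Clustered protocadherins, stochastic surface labels of neurons, held 2 falls and no rise among 22 tested, but all 22 are gamma models that share exons, so their counts are not independent.

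**Figure D4:**
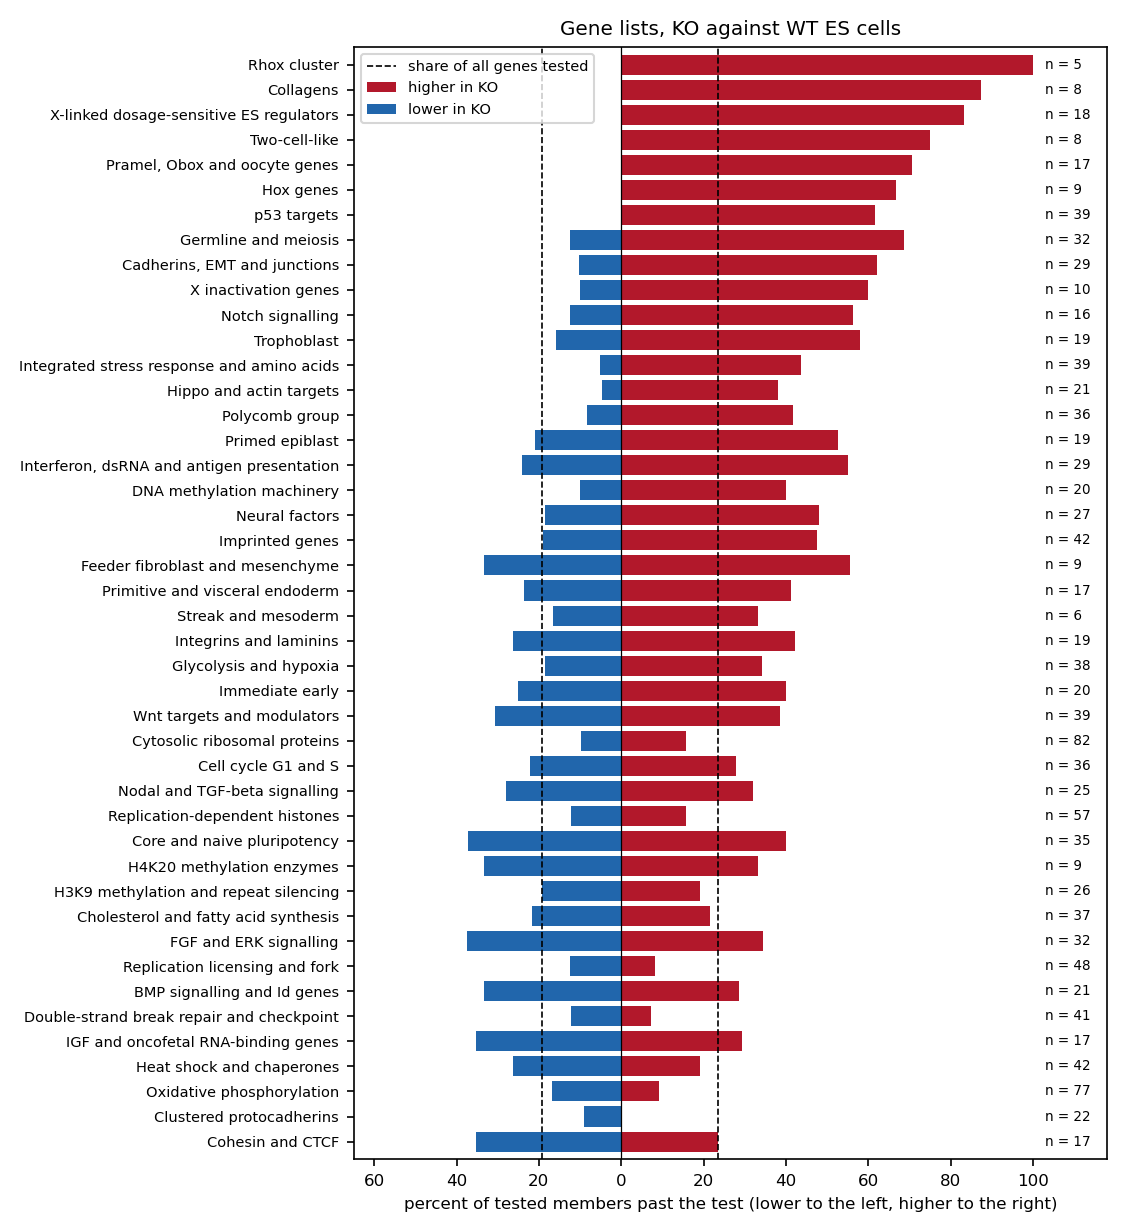
Percent of the tested members of each gene list that rose (red, right) or fell (blue, left) in KO against WT ES cells, with the number tested at the right. Dashed lines mark the shares over all genes tested, 23.5% higher and 19.2% lower, and the list of Y-linked genes is not drawn.

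The change of chromosome X was spread along its whole length. With the tested genes of each chromosome cut into 10 bins in chromosome order, the bin medians ran from 0.60 to 1.25 (log2) on X, from -0.66 to -0.36 on chromosome 1 and from -0.78 to -0.39 on chromosome 14. On X 338 of 433 genes rose (78.1%) and 13 fell, on chromosome 1 51 of 647 rose and 384 fell, and on chromosome 14 32 of 433 rose and 260 fell. The DKO libraries did not share this, with medians of -0.09 on X, 0.11 on chromosome 1 and 0.07 on chromosome 14, although they too had no reads of Ddx3y, Eif2s3y or Uty. In the differentiated KO libraries the X median was 0.67 at day 8 and 0.56 at day 12, against 0.91 in ES cells.

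Chromosome X genes with known roles in ES cells moved with the rest. Of 16 genes of X inactivation 10 were tested, 6 rose and 1 fell. Of 18 X-linked genes known for regulating ES cells or chromatin 15 rose and none fell. Kdm5c, an H3K4 demethylase that escapes X inactivation, rose from 316 and 326 CPM in the WT to 658 and 713 in the KO libraries (log2 fold change 1.12 with SE 0.11, edgeR adjusted p = 6.4e-06). Hprt, the purine salvage enzyme, rose from 81.4 and 75.97 to 134 and 129 CPM. Xist, the RNA that coats an inactivating X chromosome, did not pass the filter on low values and was not tested. Its levels in ES cells were 18.8 and 20.04 CPM in the WT and 40.04 and 21.2 in the KO libraries. On differentiation they were 1.21 CPM in WT and 254 CPM in KO at day 8, and 0.739 and 631 CPM at day 12. Xist was thus far higher in both differentiated KO libraries than in any WT library, with 1 library per genotype and day and no test. Tsix, its antisense partner, was at 22.2 and 23.02 CPM in the WT and 16.3 and 9.93 in the KO libraries in ES cells (adjusted p = 0.014, 0.14 without KO replicate 2), and reads of an overlapping antisense pair cannot be assigned without strand.

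Chromosome 6 was split. In bins 7 to 9, from Gpr27 to Crebl2, 96 of 159 genes rose and 7 fell, with a median 1.49-fold higher in KO. In bin 10, from Gpr19 to Bicd1, 6 of 53 rose and 32 fell, with a median of 0.644 times WT. Cut into 20 bins, the last one, from Lrmp to Bicd1, held 20 falls and no rise among 26 genes, while the bin from Pex26 to Usp5 held 24 rises and no fall among 26. The first 6 of the 10 bins had a median log2 difference of 0.12. The same pattern was present in the differentiated KO libraries, at 0.75 and 0.73 in bins 7 to 9 and -0.56 and -0.25 in bin 10 (days 8 and 12), and the DKO ES libraries gave 0.05 and 0.11. Nanog, Dppa3, Gdf3, Slc2a3, Phc1, Gapdh, Tpi1 and Tuba3a, named above as higher, lie in the first of these segments. Ccnd2 lies in the raised segment and fell. Whether the segment bears on the change of these genes was not tested.

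Runs of neighbours past the test in 1 direction were longest on X, where 32 genes in a row from Hmgb3 to Renbp rose, then 20 from Prickle3 to Was and 14 from Armcx5 to Ngfrap1. The longest runs of falls were 14 genes on chromosome 14 (Rnf31 to Cideb), 11 on chromosome 6 (from Pyroxd1 on) and 9 on chromosome 1 (1810031K17Rik to Tuba4a). These lengths rest on all 4 libraries. With 1 library left out, the longest unbroken stretch within each of the 3 runs of rises was 15 to 21, 7 to 9 and 10 to 11 genes, and within each of the 3 runs of falls 3 to 12, 6 to 7 and 4 to 6 genes. Nsdhl and Gripap1, within the first and second run on X, lost their calls without any 1 of the 4 libraries (adjusted p up to 0.22 and 0.27). At the ends of the run on chromosome 14, Rnf31 lost its call without WT replicate 2 (adjusted p = 0.052) and Cideb without any 1 of the 4 libraries (up to 0.23). Away from those chromosomes, runs in which each gene rose at least 2-fold held Hoxb13 and Hoxb9 on chromosome 11 and the MHC class II genes H2-Ab1 and H2-Eb1 with Notch4 on chromosome 17. H2-Eb1 was at 0.796 and 0.776 CPM in the WT and 10.9 and 14.96 in the KO libraries (log2 fold change 4.06, adjusted p = 1.3e-06).

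**Figure D5:**
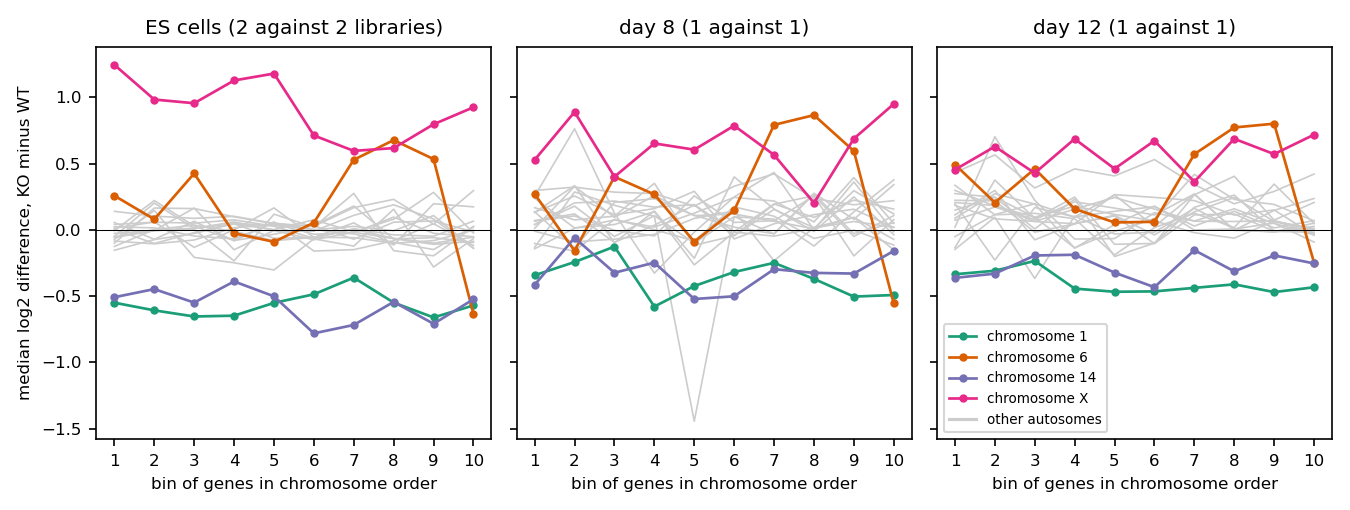
Median log2 difference of KO and WT for the tested genes of each chromosome cut into 10 bins in chromosome order, in ES cells (edgeR fold change) and at days 8 and 12 of differentiation (1 library each). Chromosome X lies above 0 and chromosomes 1 and 14 below 0 in every bin and panel, while chromosome 6 rises in bins 7 to 9 and drops in bin 10.

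After differentiation, part of the KO difference was still there. With 1 library per genotype and day there is no test, so a gene was counted when it was at least 2-fold apart on log2(CPM + 0.5) values in the same direction on both days. Over all 12044 genes 778 were higher on both days (6.46%) and 313 lower (2.6%). Of the 1164 genes that rose at least 2-fold in KO ES cells 269 were higher on both days (23.1%) and 44 lower (3.78%). Of the 575 that fell at least 2-fold 66 were lower (11.5%) and 14 higher (2.43%). With 1 library on each side, these shares are a description.

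The germline and oocyte genes were among those still higher. Tuba3a was at 3.44 CPM in WT and 55.6 CPM in KO at day 8, and 0.972 and 25.2 CPM at day 12. Smc1b was at 1.21 CPM in WT and 22.5 CPM in KO at day 8, and 1.21 and 12.8 CPM at day 12. Ooep was at 4.12 CPM in WT and 66.4 CPM in KO at day 8, and 0.7 and 28.3 CPM at day 12, and Dazl at 1.02 CPM in WT and 6.16 CPM in KO at day 8, and 0.35 and 6.52 CPM at day 12. Both KO days lie above both WT days for these 4 genes. Pluripotency genes also stood higher in the differentiated KO libraries, with Nanog at 38.4 CPM in WT and 284 CPM in KO at day 8, and 12.99 and 211 CPM at day 12, and Dppa5a at 38.7 CPM in WT and 346 CPM in KO at day 8, and 6.61 and 160.2 CPM at day 12. Zfp42, which was low in KO ES cells, was at 95.8 CPM in WT and 111 CPM in KO at day 8, and 36.6 and 51.6 CPM at day 12, so its fall had no counterpart there. H19, the imprinted RNA, was at 628 CPM in WT and 2365 CPM in KO at day 8, and 749.8 and 7709.9 CPM at day 12, and Igf2 was at 14014 CPM in WT and 302 CPM in KO at day 8, and 15746 and 1407 CPM at day 12. Of 17 endoderm genes tested in ES cells 7 rose and 4 fell, or 3 and 4 outside chromosomes 1, 14, X and Y, and of 6 primitive streak genes 2 rose and 1 fell. Some genes of endoderm were lower in differentiated KO, with Col4a1 at 779 CPM in WT and 106 CPM in KO at day 8, and 6549 and 374 CPM at day 12. Sox17, the endoderm factor, was at 215 CPM in WT and 31.9 CPM in KO at day 8, and 1401 and 82.9 CPM at day 12. In ES cells both had risen from low levels, Sox17 from 1.01 and 2.29 CPM in the WT to 4.64 and 3.86 in the KO libraries (log2 fold change 1.39, adjusted p = 0.011, up to 0.088 without WT replicate 1 or KO replicate 1).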

How the data were processed

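RNA was taken with RNeasy and miRNeasy kits, and libraries were made with NEBNext Ultra II chemistry from polyadenylated RNA, per the labels' protocols. The submitters' processing notes name Bowtie2 and mm9. The deposited tables give, for each transcript model, a read count and an RPKM value computed by the authors. How reads shared by several models, or on either strand, were counted is not given. For symbols with several models (4019 of 22878) the longest was kept. Symbols were matched to the RefSeq table of GRCm38.p6 for chromosome and gene order (99.7% matched).

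Genes at 1 RPKM or more in at least 2 of the 6 ES libraries were tested with edgeR 4.0.16 (quasi-likelihood, TMM) in 1 fit of WT, KO and DKO, with Benjamini-Hochberg adjustment at 0.05. The DKO libraries add to the estimate of spread. SE is the log2 fold change divided by the root of F. CPM are TMM-scaled. On simulated data with 200 changed genes 88% of 2-fold and 97% of 4-fold changes were recovered over 12044 genes, with 9 false calls. That simulation had equal rises and falls and no shift of whole chromosomes. In the data 42.7% of genes changed, so these rates may not hold there. Replicate libraries of a genotype differed by more than sampling noise (chi-square per degree of freedom 3.99 in WT, 15.62 in KO and 37.94 in DKO). Differentiated libraries, 1 per genotype and day, were compared on log2(CPM + 0.5) without a test. Alternatives were DESeq2 1.42.0, limma 3.58.1 on log2(RPKM + 1), other filters and scalings, and leaving out each library.

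Named genes were the 3 H4K20 enzymes, the 10 largest changes each way by fold and by RPKM, in each list the 4 or fewer past the test of smallest p, and genes of the longest runs. Other named genes were chosen after their values were seen. A few genes are not reported here. The lists were chosen with earlier results of these data known.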

Additional observations from a re-analysis of the deposited data

Results flagged for a closer look

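For 12 genes named under the rule above, both KO ES libraries differed from both WT ES libraries in one direction, while the KO library differed at least 2-fold in the opposite direction at both day 8 and day 12 of differentiation. The difference between the stages was not tested, since each differentiated stage has 1 library per genotype. Gata3, Cited1, Igfbp7 and Bmp6 passed the filter only through the KO ES libraries, and Mixl1 only through the WT ES libraries. For these genes the direction in ES cells was fixed by the filter. ES values are edgeR log2 fold changes, and the later ones are differences of log2(CPM + 0.5).

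Gata3, a trophoblast factor, was at 6.12 in ES cells and -1.96 and -1.63 at days 8 and 12. Cited1 was at 3.83, then -3.11 and -3.45. The basement membrane genes Sparc and Col4a1 were at 0.69 and 0.78, then -2.49 and -2.27 for Sparc and -2.87 and -4.13 for Col4a1. Igfbp7, a secreted binding protein, was at 2.40, then -3.98 and -1.34. Mixl1, a primitive streak factor, was at -0.85, then 4.46 and 1.49, and Tcf15, a factor of epiblast and somites, at -1.11, then 2.95 and 2.08. The fall of Mixl1 in ES cells (edgeR adjusted p = 0.048) was lost without any 1 of the 4 libraries (up to 0.25), with DESeq2 and with the replicate block.

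Etv4, a target of ERK, was at -1.70, then 1.80 and 1.69. Bmp6 was at 2.17, then -1.14 and -1.28. The Hippo list members Cyr61 and Tead3 were at 1.31 and 0.997, then -1.05 and -1.01 for Cyr61 and -1.72 and -1.48 for Tead3, whose rise in ES cells had an adjusted p of 0.057 without WT replicate 2. Ldhb, a lactate dehydrogenase subunit, was at -1.04, then 1.43 and 1.28.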

How the results depend on the processing

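Of the 5142 changed genes 4994 had the same call with DESeq2 and 4979 with the 4 WT and KO libraries alone, and none changed sign with 1 library left out. The fit of those 4 libraries alone, without DKO, called 6234 of 11574 genes changed. Without 1 library the number of changed genes was 3409 to 3872, of rises 1949 to 2174 and of falls 1460 to 1698. With no filter (18743 genes tested) 1757 genes rose and 874 fell at least 2-fold. At a minimum of 5 RPKM (7886 genes tested) 3265 changed, 1758 higher and 1507 lower, 514 and 267 of them at least 2-fold, and 213 genes of chromosome X rose. With limma on log2(RPKM + 1), which understates changes of low genes, 609 rose and 262 fell at least 2-fold. Outside chromosomes 1, 6, 14, X and Y, a choice made after seeing the data, 371 genes fell at least 2-fold. With TMM factors from genes outside chromosomes 1, 14, X and Y, 5175 changed and 2631 of them rose, so the share of rises went from 55% to 50.8%. At a 1.5-fold minimum 131 of the genes at least 2-fold lower in ES cells were lower on both days of differentiation, against 66.

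The replicate numbers do not pair the samples, since deviations of same-numbered WT and KO libraries had a correlation of -0.013. With the replicate block 4790 genes changed, 2665 of them higher.

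Of 282 changed genes named by the rule 31 lost their call without some 1 library, and Mixl1, Nsdhl, Gripap1, Cideb and Bcat1 lost it without any 1 of the 4. Mixl1 also lost it with DESeq2, with limma on log2(RPKM + 0.1) and with the replicate block, Cideb with the block, and Foxc1, Nsdhl and Gripap1 with limma. Gripap1 was lost with no filter, with the block and with TMM factors from genes outside chromosomes 1, 14, X and Y too. Of 60 list counts of 5 or more, 26 fell by over 1.5 times without some 1 library. The larger of a list's rise and fall counts changed or became equal without 1 library in the cohesin, histone, endoderm, BMP, Wnt, cell cycle, break repair, ribosomal and protocadherin lists, and under a filter of 5 RPKM in the streak, Wnt, cell cycle, replication, heat shock and integrin lists. Depth limits genes near 3 counts per library, 0.124 CPM in WT, where a fitted fold is no bound.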
